A study of Mus musculus with 6 samples.

Results

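The cytosolic ribosomal protein genes were followed through a single-cell experiment on mouse 4T1 breast tumours. They were chosen by symbol alone: names that start with Rpl or Rps and go on with a digit, plus Rplp0, Rplp1, Rplp2 and Rpsa. Names of the Rps6k kinases (10 genes) and names that carry -ps (16 genes) were left out. The rule gave 87 of 27933 genes, of which 53 have Rpl names and 34 have Rps names. Rps19bp1 fits the name only, since it encodes a binding partner of Rps19. The members supplied 536633 of 6038386 unique molecular identifiers (UMIs, each a counted mRNA molecule), or 8.89% of those in the cells kept.

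Ribosomal proteins join ribosomal RNA to form the large (Rpl) and small (Rps) subunits of the cytosolic ribosome, and every cell type makes nearly all of them. Their mRNAs typically begin with a C followed by an unbroken run of pyrimidines, the terminal oligopyrimidine (TOP) tract, through which mTOR signalling and the protein Larp1 control their translation. Dividing cells make many ribosomes, whereas mature neutrophils are known for a low RNA content and little ribosome production.

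The 4T1 line is a mouse mammary carcinoma line, grown here as tumours in Balb/c mice. In the FVIO-MHT group (magnetic hyperthermia, 3 libraries), ferrimagnetic vortex iron oxide nanorings were injected at 0.1 mg per cm3 of tumour and an alternating magnetic field of 365 kHz was applied for 10 min. The PBS group (3 libraries) received saline, and all tumours were taken after 24 hours. The labels do not say whether the PBS tumours met the field, nor that the replicates are separate mice, so p-values measure only the spread between these libraries. The tumours were dissociated with enzymes, red cells were lysed, and single cells were caught in droplets by Drop-seq. The labels call the samples breast cancer cells, but markers placed a large part of the cells in immune and stromal classes.

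Each library lists 5000 barcodes, and those with at least 200 detected genes were kept as cells. This left 332, 1049 and 2325 cells in FVIO-MHT replicates 1, 2 and 3, and 1080, 1462 and 482 in PBS replicates 1, 2 and 3. Total UMIs ran from 678337 to 2207534 per library, and the median cell held 400 to 834 UMIs. FVIO-MHT replicate 1 stood apart, with 79.8% neutrophil-like cells, no tumour epithelial-like cells and no cell of 1600 UMIs or more. Of the 9 tumour epithelial markers, 8 had no UMI in it, while Lcn2, which also leads a neutrophil-like cluster, took 0.748% of its UMIs. PBS replicates 2 and 3 shared 33 kept barcodes, whose profiles correlated with a median of 0.552 between the libraries, against 0.249 over 165 pairs of different barcodes. FVIO-MHT replicate 2 shared 2 further barcodes with these libraries. Leaving out all shared barcodes turned no difference in family share between groups or classes.

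The family is best known for a pyrimidine tract at the start of its mRNAs, so a few start sites are shown before the values. The windows come from RefSeq promoters on the GRCm38.p6 build, and 66 of the 87 members matched. Each runs 5′ to 3′ on the gene's own strand, with 12 bases before the annotated start and 15 from it onward. Capitals mark the part of the longest unbroken run of C and T within 25 bases of the start that lies in the window. They are members with many counts, members the results below turn on and Rpl35, which has the longest run printed. The RefSeq window of Rpl22 lies before its gene in the GENCODE M21 annotation used below (chr4:152325742-152334071).
Rps9, chr7:3704029-3704055, plus strand: gccttgTCTCTCTTTgtctcgggcctg
Rplp2, chr7:141447639-141447665, plus strand: gtcagcgTCTTCCTTTCgccgccggac
Rpl38, chr11:114668568-114668594, plus strand: ggaagcctcgTTCTTTCCCCgttctct
Rps24, chr14:24490666-24490692, plus strand: gcgctggggTCCTTCCTTgcgcgttga
Rpl35, chr2:39005117-39005143, minus strand: ccccgCCCTTTCCTCTTTCTCTCgaac
Rpl22l1, chr3:28805496-28805522, plus strand: cggcgcaagcccgTTCTCTTCCCacgg
Rpl22, chr4:152324424-152324450, plus strand: tgCTTCTggaatgttccagctcccact
Rpl41, chr10:128549154-128549180, minus strand: acgggccggCTCggaagtgacgacacc
Rpsa, chr9:120127754-120127780, plus strand: ggttatttaaggacgtcaTTTCCggcc

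A run of at least 9 pyrimidines lay within 25 bases of the start in 31 of the 66 matched members (47.0%), against 15.2% of 26959 other genes in the RefSeq table. For genes with several starts the longest run was taken. Over every annotated start the shares were 39.7% of 78 member starts and 13.3% of 32773 others. The letters CTTTCC, a common core of such tracts, were in the same window of 18.2% of members and 2.73% of other genes on the gene's strand. On either strand they were in 21.2% and 4.72%, and many of these matches overlap the pyrimidine runs. The letters TATAAA, searched 45 to 16 bases before the start on either strand, were in 1.52% of members and 2.98% of other genes. A C within 3 bases of the start followed by 4 or more pyrimidines was in 26 members (39.4%), against 12.4% of other genes. This form is nearer to the tract described above than a run anywhere in the window. A match is a description of the annotated sequence only. The windows of the abundant Rpl41 and Rpsa hold short runs, while those of Rps9, Rpl38, Rplp2, Rps24 and Rpl35 hold long ones. The share of counts was therefore not ordered by tract length in these examples.

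Counts were spread very unevenly over the family. Rpl41, a very short basic protein of the large subunit, had 34901 UMIs, Rplp1 of the ribosomal stalk had 33006 and Rpsa, also known as the laminin receptor, had 29691. These 3 members held 18.2% of the family's UMIs, the top 10 held 39.8%, and 14 members were enough to reach 50%. A total of 65 members had at least 500 UMIs, 20 had over 10000, and 22 had fewer than 500. Each UMI marks a 3′ end and is not divided by length, so this is an order of counted ends. Every library detected 78 of the members.

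Several proteins that every ribosome contains had very few counts. Rpl29 had 30 UMIs, Rpl24 47, Rpl28 99, Rpl10 119, Rpl3 130, Rps6 135 and Rps27 164. Sequence shared with other annotated genes is one property that can be read beside these counts. In the last 300 bases of each member's annotated transcripts (GENCODE M21, GRCm38), the share of 50-base windows found in another annotated gene was 0 for 27 members, under 50% for 15 and 50% or more for 45. The last group held 48.4% of the family's UMIs. Fewer than 500 UMIs were found for 7 of the 27 members, 1 of the 15 and 14 of the 45. Rpl28, among the low counts above, shared 0% of its windows. Over the 87 members, Spearman's rho of UMIs with the shared part was −0.204. How the authors' counter treated reads that match several genes is not stated, so members with shared ends are uncertain. The part of shared sequence in the low counts was not tested. Rps27 shared 100% of its windows and Rps27rt 88.4%, and Rps27rt had 6534 UMIs against 164 for Rps27. Among the -ps names left out, Rps26-ps1 had 7063 UMIs and Rpl9-ps6 3908, beside 1423 for Rpl9, all of whose windows are shared. In addition, 35 members overlap another annotated gene on their own strand and 24 on the opposite strand, and the use of strand in counting is not given.

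Members with a second, related gene differed in which of the pair was counted. Rpl22, an RNA-binding protein of the large subunit, had 15443 UMIs and its paralog Rpl22l1 2314. Rpl39, which lines the exit tunnel of the ribosome, had 11676 UMIs and Rpl39l 22. Rpl36al had 2638 UMIs against 266 for Rpl36a, whereas Rpl7 had 7549 against 503 for Rpl7l1. Rpl3l, a gene of striated muscle, had 3 UMIs, and the testis gene Rpl10l had none, which allows a share of up to 4.97e-05% of the UMIs (3 counts of the total, counting error only). Rps27l had 2086 UMIs. Rpl6 and Rpl6l had 2808 and 2477, but Rpl6l is annotated as a processed pseudogene and shares all of its windows.

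**Figure D1:**
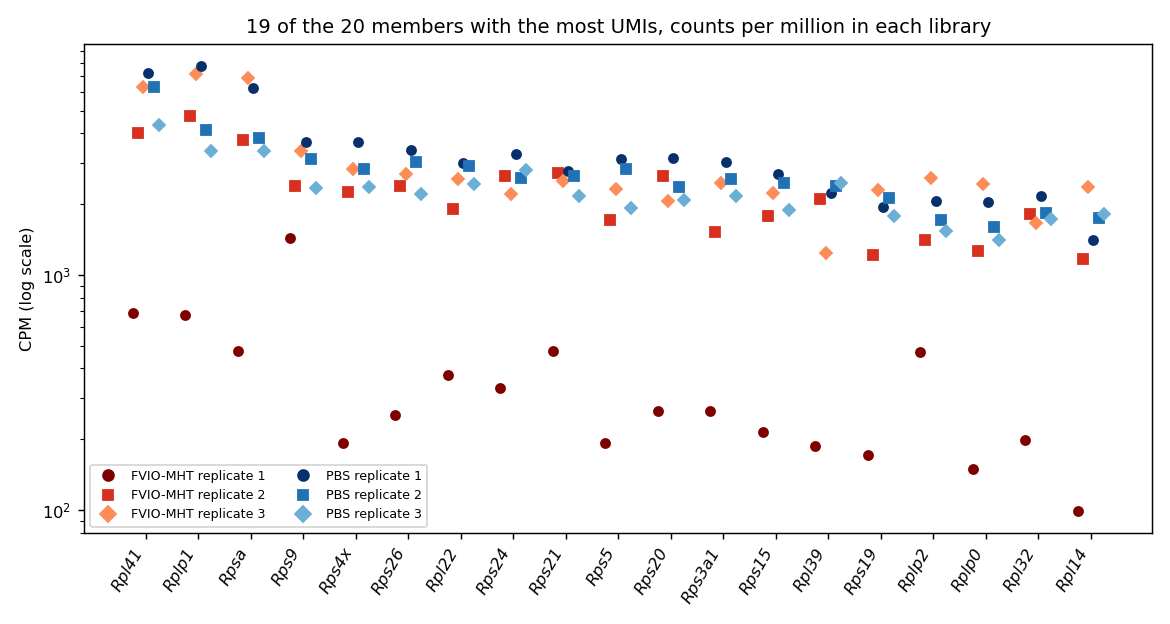
CPM (log scale, counts scaled to the same total in every library) of 19 of the 20 members with the most UMIs, 1 point per library, ordered by total UMIs. FVIO-MHT replicate 1 is the lowest library for every member shown, and Rps9 is its highest value at 1429 CPM.

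In whole libraries the family's share of UMIs was low in 1 library and close to that of PBS in another of the same group. It was 1.27%, 7.02% and 10.02% in FVIO-MHT replicates 1, 2 and 3, and 10.08%, 9.02% and 8.41% in PBS replicates 1, 2 and 3. The groups overlapped. The means were 6.11% ± 4.45 (SD, n = 3) and 9.17% ± 0.845 (SD, n = 3), a difference of −3.07 percentage points with an exact permutation p of 0.3, two-sided. With 3 libraries in each group no p below 0.1 can be reached. Without FVIO-MHT replicate 1 the difference was −0.652, and without FVIO-MHT replicate 3 it was −5.03.

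The libraries also differed in cell makeup. Neutrophil-like cells were 79.8%, 38.0% and 0.516% of the cells in FVIO-MHT replicates 1, 2 and 3, and 6.30%, 0.616% and 1.87% in PBS replicates 1, 2 and 3. The 2 libraries with the most neutrophil-like cells had the lowest family shares, but within PBS the library with the most of them had the highest share. With neutrophil-like cells left out, the family took 3.90%, 8.17% and 10.03% of UMIs in the FVIO-MHT libraries and 10.32%, 9.04% and 8.45% in the PBS libraries. The difference was then −1.90 (exact permutation p = 0.4). In sums over whole libraries, fewer cells of a type and less RNA of these genes per cell cannot be told apart. Barcodes with fewer than 200 genes, which hold free RNA and poorly captured cells, gave 1.08%, 4.36% and 9.36% in the FVIO-MHT libraries. They gave 7.74%, 7.24% and 6.27% in the PBS libraries, so the low replicate was also low in the barcodes that were not kept. Those barcodes were given no class, so free RNA and poorly captured cells cannot be told apart there.

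The most counted members showed the same order of libraries only in part. Rpl41 had 690, 4004 and 6333 CPM in the FVIO-MHT libraries and 7259, 6282 and 4337 in the PBS libraries. Rplp1 had 673, 4755 and 7171 against 7731, 4134 and 3362, and Rpsa had 475, 3751 and 6913 against 6242, 3808 and 3353. In each of these the lowest value was FVIO-MHT replicate 1, and the remaining FVIO-MHT libraries lay within or near the PBS range. Rps9 differed from these in being much nearer to the rest in FVIO-MHT replicate 1, with 1429, 2390 and 3366 CPM against 3673, 3101 and 2349.

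Cell classes came from clusters drawn without the members, so the members' counts did not shape them. A class was read in a library where it had at least 20 cells. Neutrophil-like cells had the lowest mean share, 2.25% over 3 libraries. Fibroblast-like cells followed at 5.66% (4 libraries), endothelial-like at 6.41% (2 libraries) and macrophage/monocyte-like cells at 6.50% ± 1.43 (SD, n = 5). Mammary luminal-like cells had 8.13% (3 PBS libraries), T and NK-like cells 9.64% (4 libraries), skin keratinocyte-like cells 9.95% (3 libraries) and tumour epithelial-like cells 10.00% ± 0.530 (SD, n = 5). B/plasma-like cells, present in PBS replicate 1 only, had 11.50%. Neighbours from T and NK-like to tumour epithelial-like cells did not differ beyond their spread, nor did fibroblast-like to macrophage/monocyte-like cells.

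Clusters 2 and 9 were left unnamed. Cluster 2, led by Arg1, Pf4 and Mmp12, had 3.74% in FVIO-MHT replicate 1, the only library with 20 of its cells. Cluster 9 was led by the haemoglobin genes Hbb-bs, Hba-a2 and Hba-a1 and then by Rhox5 and Krt7. It had 10.99% over 4 libraries and made up 48.8% of the cells of FVIO-MHT replicate 3. The 6 erythroid markers took 0.143% of the cluster's UMIs in that library and 0.00334% in FVIO-MHT replicate 2. None had a UMI in the cluster in PBS replicates 1 and 2. The 9 tumour epithelial markers took 0.291% to 0.588% of the cluster's UMIs, beside 0.339% to 0.613% in the tumour epithelial-like class.

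**Figure D2:**
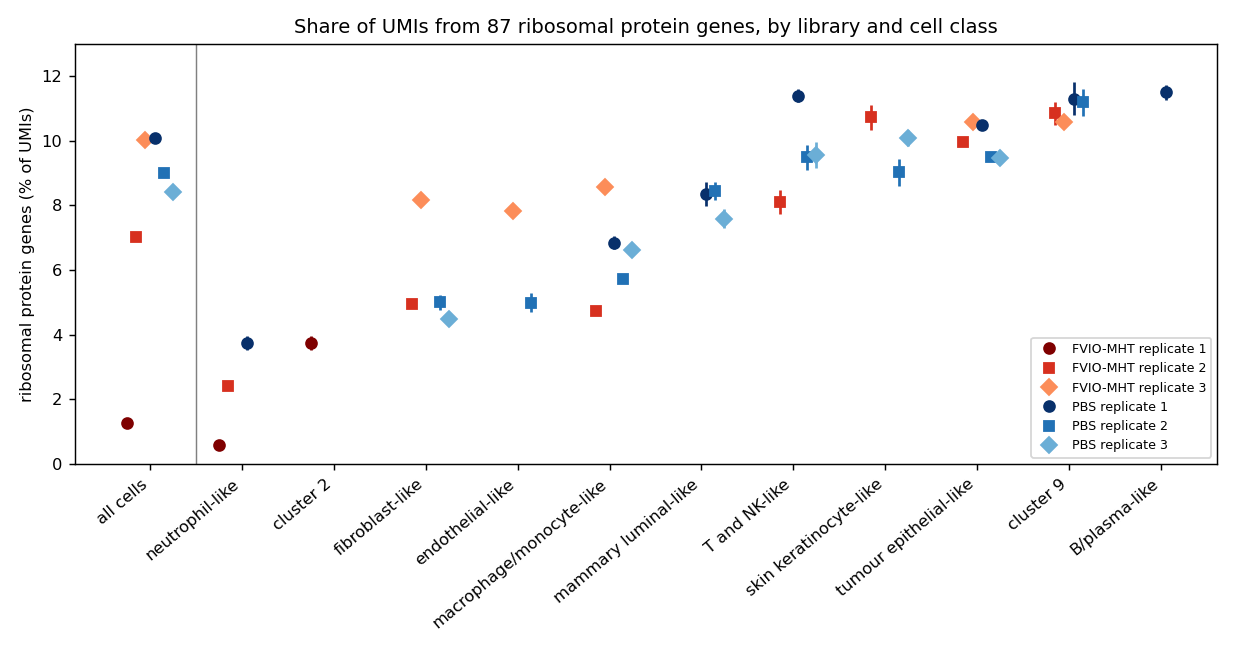
Share of UMIs (%) from ribosomal protein genes in each library, over all cells (left) and in each cell class or unnamed cluster with at least 20 cells, ordered by class mean. Bars are 95% exact binomial intervals and cover counting error only. Neutrophil-like cells lie between 0.586% and 3.74%, and tumour epithelial-like cells between 9.46% and 10.6%.

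Within libraries 5 of the 7 pairs of classes compared had the same order in every library. For cluster 9 against tumour epithelial-like cells, that order lay within counting error in FVIO-MHT replicate 3. The macrophage/monocyte-like share was below the tumour epithelial-like share in 5 of 5 libraries, by 3.49 percentage points on average and by 1.99 to 5.23 in single libraries. The two-sided exact sign-flip permutation p was 0.0625, the smallest that 5 libraries allow, and 0.175 after Benjamini-Hochberg adjustment over 7 pairs of classes. Fibroblast-like cells were below tumour epithelial-like cells in 4 of 4 libraries, by 4.22 points on average (exact permutation p = 0.125, adjusted 0.175). T and NK-like cells were above macrophage/monocyte-like cells in 4 of 4 libraries, with a mean difference of 3.66. Against tumour epithelial-like cells they were higher in 2 of 4, with a mean difference of −0.215 (exact permutation p = 0.875). Fibroblast-like cells were above macrophage/monocyte-like cells in 1 of 4, with a mean difference of −0.760 (exact permutation p = 0.25, adjusted 0.292). Cluster 9 was above macrophage/monocyte-like cells by 4.51 and above tumour epithelial-like cells by 0.852, each in 4 of 4 libraries. No pair could pass a threshold of 0.05 with so few libraries.

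The share in neutrophil-like cells differed several-fold between libraries. It was 0.586% in FVIO-MHT replicate 1 (95% exact interval 0.547 to 0.627), 2.42% in FVIO-MHT replicate 2. PBS replicate 1 had 3.74%. Different clusters held them. FVIO-MHT replicate 1 had 263 cells in cluster 0, led by Retnlg, Ngp and Lcn2, at a share of 0.587%. FVIO-MHT replicate 2 had 58 cells of that cluster at 1.71%, and most of its cells were in cluster 4, led by Il1r2 and Cxcr2, at 2.56%. PBS replicate 1 had most of its cells in cluster 4 as well, at 4.39%. In FVIO-MHT replicate 1, 29 of the 265 neutrophil-like cells had no UMI of the family.

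The low share in neutrophil-like cells ran through nearly the whole family. Of the 65 members with at least 500 UMIs, 65 had a lower CPM in neutrophil-like than in tumour epithelial-like cells of FVIO-MHT replicate 2, with a median ratio of 0.236. In PBS replicate 1 the count was also 65 of 65, with a median ratio of 0.334. For macrophage/monocyte-like against tumour epithelial-like cells, 64 of 65 were lower in FVIO-MHT replicate 2 (median ratio 0.467) and 65 of 65 in PBS replicate 1 (median ratio 0.617). Both classes of a pair came from 1 library, and members share the cells they were counted in. The share of all genes lower in the same comparisons was not computed, so these counts do not set the members apart from other genes.

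In 4 classes there were enough cells to compare the groups, and no difference passed the test. The macrophage/monocyte-like share was 4.74% and 8.59% in FVIO-MHT replicates 2 and 3 and 6.85%, 5.71% and 6.64% in the PBS libraries, so the FVIO-MHT libraries lay on both sides of PBS. The difference was 0.261 with an exact permutation p of 1. It was −0.719 with finer clusters, −0.720 with clusters drawn with the members and −0.0828 without PBS replicate 2. Without FVIO-MHT replicate 2 it was 2.18, and without FVIO-MHT replicate 3 it was −1.66. FVIO-MHT replicate 3 also differed in the makeup of this class: 22.1% of its cells were in cluster 15, led by Ly6c2 and Ccl12, at a share of 5.68%, and the rest in cluster 1, led by C1qc and C1qa, at 9.23%. In the other libraries cluster 15 was at most 2.69% of the class.

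Marker levels in this class differed between libraries too. The 10 neutrophil markers together took 0.378% of the class's UMIs in FVIO-MHT replicate 2 and 0.0970% in replicate 3, against 0.295%, 0.0369% and 0.128% in PBS replicates 1, 2 and 3. The 13 macrophage/monocyte markers took 0.806% and 1.63% against 0.648%, 1.14% and 0.697%. The 9 tumour epithelial markers took 0.0202% and 0.118% against 0.0399%, 0.0635% and 0.0305%. All neutrophil markers had counts in both FVIO-MHT libraries, and at most 2 of 10 were at 0 in a PBS library. FVIO-MHT replicate 3 was the highest library in both the macrophage and the tumour markers. The part of these differences in the family's share was not tested.

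The tumour epithelial-like share was 9.97% and 10.58% in FVIO-MHT replicates 2 and 3 and 10.50%, 9.49% and 9.46% in the PBS libraries. The difference was 0.455 (exact permutation p = 0.4, and 0.2 is the smallest that 2 against 3 libraries allow). These cells came from different clusters in different libraries. In FVIO-MHT replicate 3, 411 of 461 were in cluster 7, whereas 58.0% of those of PBS replicate 1 were in cluster 6. Within cluster 10, which alone of the 4 tumour clusters had 20 cells in all 5 libraries, the shares were 10.1% and 9.99% against 11.3%, 10.0% and 9.93%. Fibroblast-like cells had 4.96% and 8.18% in FVIO-MHT replicates 2 and 3 against 5.00% and 4.49% in PBS replicates 2 and 3, a difference of 1.82 (exact permutation p = 0.667), and 0.212 without FVIO-MHT replicate 3. Cluster 9 had 10.9% and 10.6% in FVIO-MHT replicates 2 and 3 against 11.3% and 11.2% in PBS replicates 1 and 2. These groups did not overlap, and the difference of −0.529 had an exact permutation p of 0.333, the smallest that 2 against 2 libraries allow. The p-values of the 4 classes adjusted to between 0.8 and 1.

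The share was higher in deeper barcodes in 3 libraries and varied less with depth in the others. From under 400 to at least 1600 UMIs it went from 3.81% through 4.48% and 7.98% to 8.89% in FVIO-MHT replicate 2. The classes differed between these bins: 215 of its 375 barcodes under 400 UMIs were neutrophil-like. Of its 138 barcodes of at least 1600 UMIs, 89 were tumour epithelial-like. The part of this mix in the rise was not tested. In PBS replicate 2 the share went from 6.87% to 9.31%, and in PBS replicate 3 from 6.84% to 8.94%. In FVIO-MHT replicate 3 it lay between 9.47% and 10.5%, in PBS replicate 1 between 9.30% and 10.5%, and in FVIO-MHT replicate 1 between 0.935% and 2.09%. Across single cells, Spearman's rho of share with UMIs was 0.418 in FVIO-MHT replicate 2, 0.279 in PBS replicate 2 and 0.256 in PBS replicate 3. It was between −0.105 and 0.0665 in the other 3 libraries. Cells of a library share their preparation, so these values are descriptions.

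Within the macrophage/monocyte-like class the share was also higher in deeper barcodes in 4 of 5 libraries. It went from 4.02% in the shallowest to 5.16% in the deepest bin read in FVIO-MHT replicate 2, from 7.95% to 9.27% in FVIO-MHT replicate 3, from 4.59% to 5.99% in PBS replicate 2 and from 4.81% to 6.90% in PBS replicate 3. PBS replicate 1 went from 6.31% to 5.96%. Neutrophil-like cells went down in each library read: from 0.759% to 0.561% in FVIO-MHT replicate 1 and 2.07% to 1.89% in FVIO-MHT replicate 2. In PBS replicate 1 they went from 2.88% to 2.38%. Tumour epithelial-like cells of FVIO-MHT replicate 2 went from 10.4% to 10.0%. In the other libraries this class was higher in the deepest bin read than in the shallowest, most clearly in PBS replicate 2 (6.59% to 9.54%). Single cells varied more than counting allows. In tumour epithelial-like cells the SD of the share between cells was 2.40 to 3.94 percentage points over the libraries, where binomial sampling at each cell's depth gives 0.898 to 1.09.

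**Figure D3:**
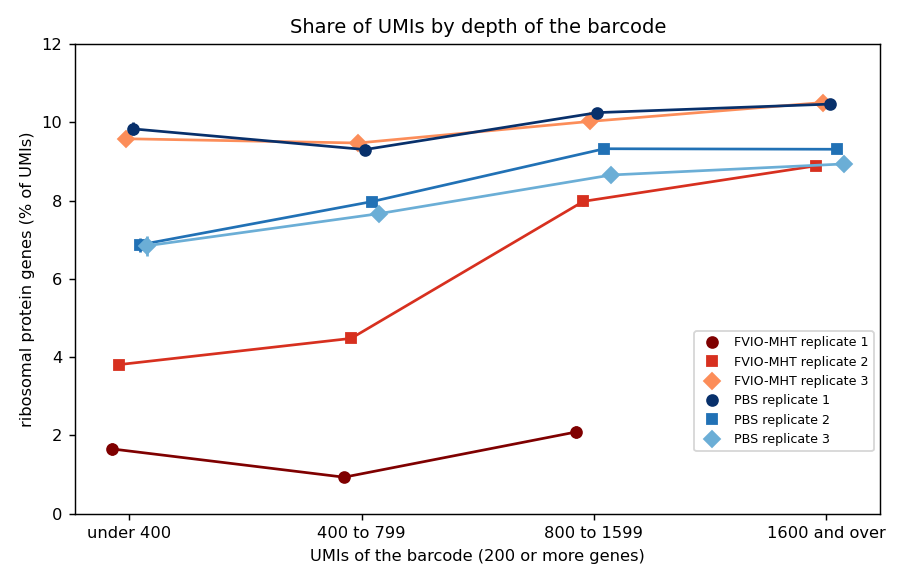
Share of UMIs (%) from ribosomal protein genes by UMIs of the barcode, 1 line per library, with 95% exact binomial intervals. All cell classes are pooled, and their mix can differ between bins. FVIO-MHT replicate 2 goes from 3.81% to 8.89%, and FVIO-MHT replicate 1 stays at or under 2.09% in each of its 3 bins.

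The stalk, a sum of only 3 members, varied more between libraries, relative to its level, than the sums of the subunits did. The small subunit (31 members) supplied 44.8% to 51.4% of the family's UMIs in each library and the large subunit (43 members) 33.5% to 43.5%. Both sums leave out 10 members named after another member, such as Rps27rt. These supplied 2.43% to 5.02%, a wider range relative to their level than that of the stalk. The stalk proteins Rplp0, Rplp1 and Rplp2, which bring elongation factors to the ribosome, supplied 10.1%, 10.6% and 12.2% in FVIO-MHT replicates 1, 2 and 3. In PBS replicates 1, 2 and 3 they supplied 11.7%, 8.25% and 7.49%, so PBS replicates 2 and 3 were below all other libraries. Across classes the share of the family was most even for Rps15 (highest over lowest class 1.16), Rps26 (1.31) and Rps21 (1.37). It was most uneven for Rps2 (7.45), Rpl30 (6.42) and Rps27rt (4.82), all with lower counts. Classes come from different libraries, so these ratios mix class and library. For Rps2 the lowest class was the B/plasma-like cells of PBS replicate 1, with 4 UMIs, and over all cells Rps2 supplied 0.0901% of the family in that library and 0.432% in FVIO-MHT replicate 3. For Rps27rt the highest class was the neutrophil-like cells.

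Rps9 made up a large part of the family in neutrophil-like cells of the FVIO-MHT libraries. Rps9 is a small-subunit protein, and its gene lies at chr7:3703993-3706897 on the plus strand. It supplied 176 of 842 family UMIs in neutrophil-like cells of FVIO-MHT replicate 1, or 20.9% (95% exact interval 18.2 to 23.8). In FVIO-MHT replicate 2 it supplied 7.31% (6.55 to 8.12) of the family in this class, and in PBS replicate 1 4.72% (3.59 to 6.09). In the other 32 sums of a class or cluster in a library it supplied 2.30% to 5.47%, the highest of them cluster 2 of FVIO-MHT replicate 1. PBS replicate 1 therefore lay inside the range of the other classes, and the FVIO-MHT libraries lay above it.

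In CPM the level of Rps9 in neutrophil-like cells varied less than its share, at 1226, 1767 and 1764 in FVIO-MHT replicates 1 and 2 and PBS replicate 1, below the 2485 to 3618 of tumour epithelial-like cells. Without Rps9 the share of the family in neutrophil-like cells of FVIO-MHT replicate 1 was 0.464%. Against tumour epithelial-like cells of the same library, Rps9 had the highest ratio of the 65 members in FVIO-MHT replicate 2, at 0.672, beside the median of 0.236 given above. In PBS replicate 1 its ratio was 0.488, and the highest was that of Rps16, at 0.968. The neighbours of Rps9 are Tsen34, which ends 2968 bases before it on the same strand, and Pirb, 4511 bases beyond it on the opposite strand. Of its 3′ windows, 50.6% are shared with Gm5905. Rps27rt held a high share of the family in the neutrophil-like cells of FVIO-MHT replicate 1 alone. In CPM its level in neutrophil-like cells was 372 to 788 over the 3 libraries, within the 296 to 2851 of the other classes. It supplied 7.24% of the family there, 1.54% in those of FVIO-MHT replicate 2, 2.11% in those of PBS replicate 1 and 0.293% to 2.98% in the other classes.

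Some members stood apart in FVIO-MHT replicate 3. Rpl37a, a zinc-binding protein of the large subunit (chr1:72711290-72713813, plus strand), supplied 1.16% to 1.42% of the family in its 5 classes. In the tumour epithelial-like class it supplied 1.26%, against 0.362% to 0.530% in the other 4 libraries, a ratio of 2.37 to the highest of them. Its level there was 422 and 1330 CPM in FVIO-MHT replicates 2 and 3 and 380, 503 and 480 in the PBS libraries. In the macrophage/monocyte-like class it was 217 and 1216 CPM against 347, 369 and 392. FVIO-MHT replicate 3 was thus high in both classes and FVIO-MHT replicate 2 was not. Neutrophil-like cells and cluster 2 of FVIO-MHT replicate 1 also had high shares, 2.14% and 1.41%, from 18 and 17 UMIs.

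Rpl39 (chrX:37082520-37085402, minus strand) was the counterpart. It supplied 1.14% to 1.30% of the family in the 5 classes of FVIO-MHT replicate 3 and 1.43% to 3.44% in the 30 other sums. Rps2, which lies near the mRNA entry channel, reached 0.506% in tumour epithelial-like cells of FVIO-MHT replicate 3, against at most 0.265% in the other libraries, but in macrophage/monocyte-like cells it had 0.318% against at most 0.285%. Rpl38, known for the translation of Hox mRNAs, reached 0.790% against at most 0.467% in tumour epithelial-like cells and 0.838% against at most 0.547% in macrophage/monocyte-like cells. Only 4.38% of the 3′ windows of Rpl37a are shared with other genes and 21.1% of those of Rpl39, but 78.1% for Rps2 and 65.3% for Rpl38. Over all 65 members, FVIO-MHT replicate 3 and PBS replicate 3 each had the highest family share in tumour epithelial-like cells for 21, FVIO-MHT replicate 2 and PBS replicate 1 for 9 each and PBS replicate 2 for 5.

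**Figure D4:**
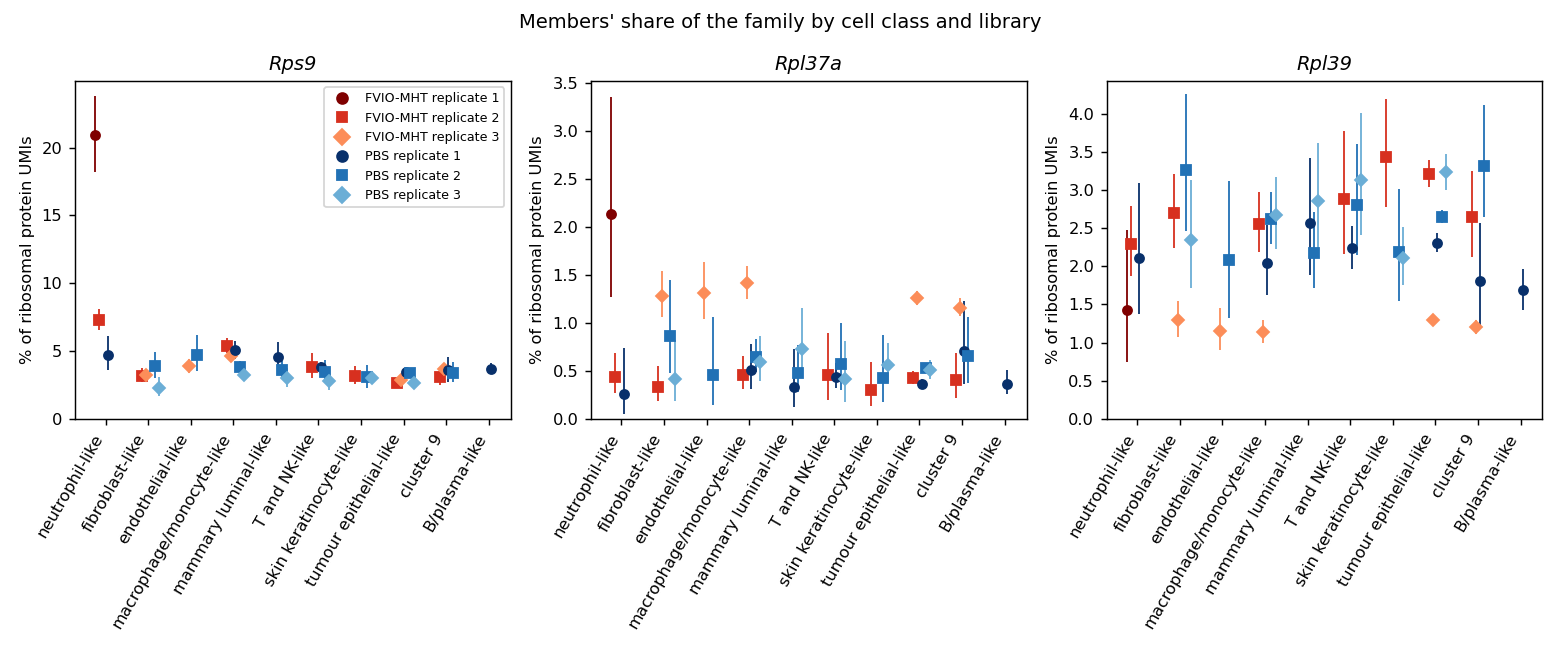
Share of the family's UMIs (%) supplied by Rps9, Rpl37a and Rpl39 in each class and library with at least 20 cells (cluster 2 not drawn), with 95% exact binomial intervals. Rps9 reaches 20.9% in neutrophil-like cells of FVIO-MHT replicate 1, and FVIO-MHT replicate 3 is high for Rpl37a and low for Rpl39 in each of its classes.

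No member passed the test between the groups. In edgeR's quasi-likelihood test on sums over all cells of a library, 82 of the 87 members passed the filter on low counts, and 0 of 8603 genes had a Benjamini-Hochberg adjusted p under 0.05 (0% called). DESeq2 called 185 genes on the same sums, with no member among them. The log2 fold change of FVIO-MHT over PBS was negative for 71 of the 82 members, beside 53.0% of all genes tested. The members' median was −0.49, beside −0.04 over all genes. Without FVIO-MHT replicate 1 the members' median was −0.15, and without FVIO-MHT replicate 3 it was −1.02. At an unadjusted p under 0.05 there were 451 genes (5.24%) and 1 member. In 5 members, Rpl39, Rpl4, Rps14, Rpl9 and Rpl7a, all FVIO-MHT libraries were below all PBS libraries (6.10% of members, against 9.46% of all genes), and in none were they all above (3.17% of all genes).

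The member with the smallest p was Rpl9, of the large subunit (chr5:65388364-65391444, minus strand). It had 44.1, 108 and 179 CPM in FVIO-MHT replicates 1, 2 and 3 and 258, 316 and 406 in PBS replicates 1, 2 and 3, so the groups did not overlap. Its log2 fold change was −1.45 ± 0.50 (SE), with an unadjusted p of 0.0182 and an adjusted p of 0.878 in edgeR, between 0.0897 and 1.00 over the alternatives. In tumour epithelial-like cells it had 136 and 210 CPM against 290, 336 and 429, a log2 fold change of −1.09 ± 0.35 (SE) with an adjusted p of 0.451 in edgeR. All of its 3′ windows are shared with other annotated genes, Rpl9-ps6 among them. Rpl39 had 188, 2111 and 1245 CPM in the FVIO-MHT libraries against 2225, 2392 and 2468, and its log2 fold change of −0.97 ± 0.72 (SE) had an adjusted p of 0.915 in edgeR.

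Within the macrophage/monocyte-like and tumour epithelial-like classes, the members' medians lay close to those of all genes. In tumour epithelial-like cells 82 members and 7451 genes were tested in 2 against 3 libraries, and none passed (0% called). The members' median log2 fold change was 0.02, with 37 negative (48.8% of all genes were), beside 0.01 over all genes, and under scaling by library totals it was 0.12, with 25 negative, beside 0.11. At an unadjusted p under 0.05 there were 698 genes (9.37%) and 3 members: Rpl9, Rpl7l1 (log2 fold change 0.80) and Rpl36al (0.79). FVIO-MHT lay wholly above PBS in 6 members, Rps25, Rpl27a, Rpl36al, Rpl35a, Rpl7l1 and Rpl3 (7.32%, against 17.4% of all genes), and wholly below in Rpl4 and Rpl9 (2.44%, against 9.38%). DESeq2 called 27 genes here, none of them a member.

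In macrophage/monocyte-like cells 63 members and 3180 genes were tested in 2 against 3 libraries, and none passed (0% called, and 4 genes by DESeq2, none a member). The median was 0.03 for the members, with 30 negative (49.2% of all genes were), and 0.01 for all genes, and 137 genes (4.31%) but no member had an unadjusted p under 0.05. Rpl22l1 was higher in both FVIO-MHT libraries than in all PBS libraries (1 member, against 9.34% of all genes), and Rpl39 and Rpl31 were lower (2 members, against 9.81%). Several of these values rested on a single library. With FVIO-MHT replicate 3 as the only FVIO-MHT library, assumed to vary like the PBS libraries, Rpl37a had a log2 fold change of 1.77 in this class. Rpl38 had 1.74 in it, and Rpl37a had 1.497 in tumour epithelial-like cells. With FVIO-MHT replicate 2 alone the values for Rpl37a were −0.85 and −0.25, and Rpl38 had −1.55.

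**Figure D5:**
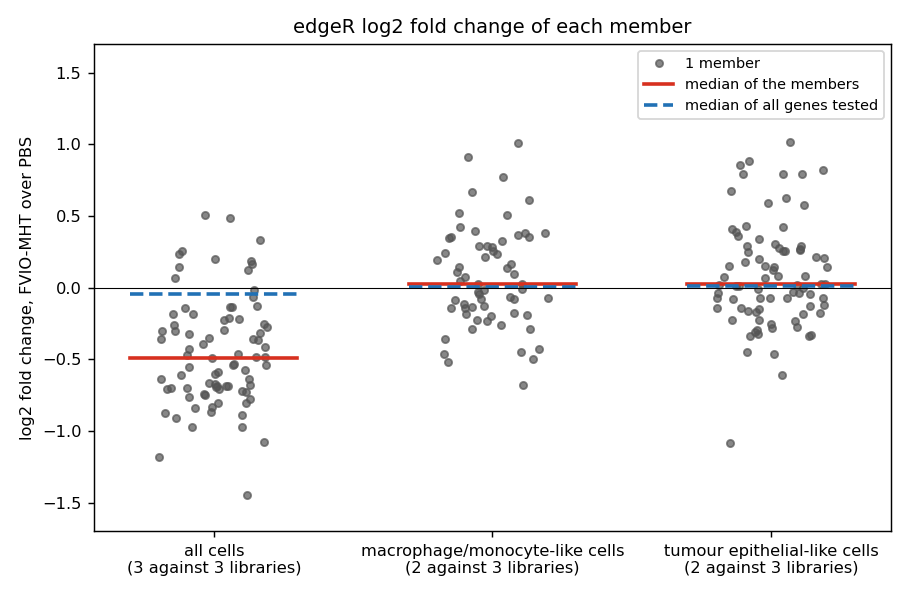
edgeR log2 fold change (FVIO-MHT over PBS) of each tested member in sums over all cells, macrophage/monocyte-like cells and tumour epithelial-like cells, 1 point per member, spread sideways for clarity. The members' median (solid line) is −0.49 over all cells and 0.03 and 0.02 within the classes, beside −0.04, 0.01 and 0.01 for all genes tested (dashed line).

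Other genes of protein synthesis were read from lists of known members, and no gene of any list passed in edgeR in the 3 comparisons. Over all cells, 17 of 18 tested TOP genes other than ribosomal proteins had negative fold changes, with a median of −0.55. They include Eef1a1, the main elongation factor (log2 fold change −0.996), and Naca, which binds new protein chains (−1.11). Of 33 ribosome biogenesis genes 24 were negative (median −0.25). Of 73 mitochondrial ribosomal proteins 39 were negative (median −0.07), and of 57 initiation and elongation factors 35 were (median −0.11). Regulators of ribosome production split 7 positive to 5 negative of 12.

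The lists differed in direction in tumour epithelial-like cells. The TOP genes were centred near 0, with 6 of 18 positive and a median of −0.09. Ribosome biogenesis genes were positive in 28 of 33 (median 0.34), mitochondrial ribosomal proteins in 59 of 71 (median 0.42) and initiation and elongation factors in 35 of 55 (median 0.12), beside the median of 0.01 over all genes. Among them Dkc1, the pseudouridine synthase of ribosomal RNA, had 267 and 448 CPM in the FVIO-MHT libraries and 178, 120 and 132 in the PBS libraries. Its log2 fold change was 1.25 ± 0.34 (SE), with an edgeR adjusted p of 0.404. Mrpl12 of the mitochondrial ribosome had a log2 fold change of 1.12. FVIO-MHT replicate 3 was the highest library for the summed share of both lists, at 1.30% of UMIs for ribosome biogenesis and 0.750% for mitochondrial ribosomal proteins. FVIO-MHT replicate 2 had 0.837% for ribosome biogenesis, within the 0.826% to 0.959% of PBS, and 0.499% for mitochondrial ribosomal proteins, above the 0.428% to 0.462% of PBS.

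Myc, a transcription factor that drives ribosome production, stood lowest of the regulators. Its level in tumour epithelial-like cells was 72.1 and 30.7 CPM in FVIO-MHT replicates 2 and 3 against 128, 311 and 259 in the PBS libraries, so the groups did not overlap. With finer clusters, Myc was among the leading genes of a tumour epithelial-like cluster of 320 cells. FVIO-MHT replicates 2 and 3 gave 7 and 1 of them, and PBS replicates 1, 2 and 3 gave 12, 264 and 36. The part of this makeup in the Myc levels was not tested. The log2 fold change of Myc was −2.36 ± 0.51 (SE), with an edgeR adjusted p of 0.331. Over all cells it was −2.10 ± 0.67 (SE), with an edgeR adjusted p of 0.878. Larp1, which binds TOP mRNAs, had 0.73 in tumour epithelial-like cells. In macrophage/monocyte-like cells the lists were near 0, with 10 of 18 TOP genes, 9 of 18 biogenesis genes, 16 of 24 mitochondrial ribosomal proteins, 20 of 46 factors and 1 of 5 regulators positive.

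The genes whose levels most followed the family were read over 22 sums of a class in a library, each of at least 50 cells, from 6 libraries and 10 classes or clusters. Sums of 1 library share preparation and sums of 1 class share identity, so Spearman's rho is given as a description. Among 839 genes with a mean of at least 200 CPM the median rho with the family share was 0.07. Outside the family and the lists it was highest for Top2a, the topoisomerase of dividing cells (0.930), the histone chaperone Nap1l1 (0.929) and Nucks1 (0.925), followed by Nol7, Hnrnpab, Ssb, Gm8730, Rsl1d1, Set and Kif5b. It was lowest for the inflammasome sensor Nlrp3 (−0.879), Gabarap (−0.878) and the stress regulator Nfe2l2 (−0.872), followed by Ier5, Cebpb, Marcks, Nfkbia, Sat1, Casp4 and Rnf149. Within the lists the median rho was 0.853 for 6 biogenesis genes, 0.794 for 14 TOP genes and 0.728 for 20 factors. Nop58 (0.958) and Ncl (0.946), both nucleolar proteins, and the elongation factor subunit Eef1b2 (0.944) were among the highest, whereas Tpt1 was at 0.389 and Eif5 at −0.121.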

How the data were processed

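Per the submitters' processing notes, the authors aligned Drop-seq reads with STAR 2.7.2b to mm10. The deposited matrices give, for every barcode, each gene's UMI count as a whole number. No counter, annotation, strand setting or barcode rule is named in the labels. From these, 65 rows repeating a symbol with identical counts were dropped, and barcodes with at least 200 genes were kept. Cells were clustered with scanpy 1.11.5 on 2000 variable genes without the members (30 components, Leiden resolution 1, 17 clusters). Clusters were named from marker lists. Scrublet called 39 doublets (0.579%), which were not removed. Because doublets were kept, mixed droplets can add to any class. Shares pool UMIs per library and class (at least 20 cells), with 95% Clopper-Pearson intervals that cover counting error only. Groups were compared with two-sided exact permutation tests. Gene tests used edgeR 4.0.16 (R 4.3.3; TMM, filterByExpr) on summed counts, tested on simulated data, with Benjamini-Hochberg adjustment over all genes tested and a threshold of 0.05. DESeq2 1.42.0, other scalings, filters and clusterings, and leaving out each library, were alternatives.

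Members named are the 10 with the highest mean CPM, the stalk members and Rpsa, members with paralog names, the 5 lowest p-values in each direction per comparison, the 3 most and 3 least uneven across classes, the 2 lowest p-values in each direction per list and the 10 genes at each end of the correlation. Rps16, Rps23, Rpl35, Mrpl12, Larp1 and the members counted as not overlapping were chosen after their values were seen. The members and lists were chosen with earlier results of these data known. Some members and list genes named by this rule are not reported here, but they stay in all sums, fits and counts.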

Additional observations from a re-analysis of the deposited data

How the results depend on the processing

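Of the recomputed values of the main results 196 kept direction, side of the threshold and size, 23 moved and 6 turned direction, and the cause was not tested. The macrophage/monocyte-like share difference (0.261) was −0.719 with finer clusters, −0.720 with clusters drawn with the members and −0.711 with cluster 2 added, an alternative chosen after seeing the data. Leaving out single libraries gave −1.66 to 2.18. The T and NK-like minus tumour epithelial-like difference (−0.215) ranged from −0.589 to 0.335. Genes past the threshold over all cells were 185 by DESeq2 and 2 without a filter on low counts. In macrophage/monocyte-like cells they were 4 by DESeq2, 18 without the filter and 0 to 74 without single libraries (74 without FVIO-MHT replicate 2, 17 without FVIO-MHT replicate 3, 2 without PBS replicate 1). In tumour epithelial-like cells they were 27, 136 and 0 to 230 (230 without FVIO-MHT replicate 2, 5 without PBS replicate 1). Members past the threshold were 0 to 2 and 0 to 1, and the members' medians were −0.63 to 0.40 and −0.25 to 0.27. Over all deposited barcodes the shares under 400 UMIs were 1.12%, 4.25% and 9.46% in the FVIO-MHT libraries and 8.17%, 7.15% and 6.36% in the PBS libraries.

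Some named genes turned direction when 1 library was left out. Over all cells the log2 fold change then ranged from −0.64 to 0.83 for Rpl23a, −0.47 to 0.82 for Rpl37a, −0.78 to 0.63 for Rpl26 and −0.39 to 0.55 for Rpl7l1. In macrophage/monocyte-like cells it ranged from −0.85 to 1.77 for Rpl37a, −0.10 to 1.27 for Rps2, −0.27 to 1.14 for Rpsa, −1.55 to 1.74 for Rpl38 and −1.19 to 0.30 for Rpl9. In tumour epithelial-like cells it ranged from −0.24 to 1.59 for Rpl23a and −0.25 to 1.497 for Rpl37a. Each of these was negative without FVIO-MHT replicate 3, and Rpl26 also without PBS replicate 1 (−0.12), while Rpl9 was 0.0044 without FVIO-MHT replicate 2 and 0.30 without PBS replicate 3. Replicate numbers did not pair the libraries: deviations of same-numbered libraries correlated at 0.156, 0.0186 and −0.0846. With a replicate block, 3 genes passed in macrophage/monocyte-like and 30 in tumour epithelial-like cells, Rpl26 was −0.051 and Rpl7l1 −0.082 over all cells, and Rpl38 was −0.019 in macrophage/monocyte-like cells. The all-cell share difference was −3.07 with an exact permutation p of 0.5 in the block. A minimum of 400 genes or cells of 400 to 1000 UMIs gave no value for classes left with too few libraries. Totals of 678337 to 2207534 UMIs leave the 22 members under 500 UMIs with little precision.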
